A study of Mus musculus with 4 samples.

Results

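The 8 genes described here mark B cell subsets of the mouse spleen. Cr2, S1pr3, Cd1d1, Dtx1, Cd9 and Notch2 are associated with marginal zone B cells, Fcer2a with follicular B cells, and Ms4a1 is expressed by mature B cells of both kinds and served as the pan B cell reference. They were taken by gene symbol from the deposited table and had 9 of its 14226 rows, because Fcer2a has 2 rows. Every member had a row, and the sources used here do not state whether the submitters filtered rows on low values.

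RNA was sequenced from splenocytes, the mixed cell suspension of a whole spleen, of mice on the C57BL/6N strain. There were 2 libraries of vcS5 mice, whose genotype is given as vcS5 +/T and whose columns are headed line1, and 2 libraries of wild-type mice. The series title names an activating STAT5 mutation and peripheral T cell lymphoma, and the comparison asks how expression in the spleen differs in mice with this transgene. Both vcS5 libraries come from what the headers call line1, and the promoter of the transgene and the age of the mice are not given in the sources used here. Stat5a, the check of the labels, had 105.2 and 123.0 FPKM (fragments scaled to transcript length and library size) in the vcS5 libraries, against 13.9 and 17.0 FPKM in the wild-type libraries. Median FPKM was 12.2 and 12.6 in vcS5 and 12.2 and 12.5 in wild type, and the number of reads behind a value is unknown. Pan T cell markers summed to 2492 and 3276 FPKM in vcS5 against 911 and 1220 FPKM in wild type. Of the 13 markers, 9 passed as higher by limma, a linear model fitted across all rows, against 4.59% of all rows, and all 13 were higher by mean at an unadjusted p under 0.05. Granulocyte markers summed to 1022 and 987 FPKM in vcS5, against 6236 FPKM in wild type replicate 1 and 1887 FPKM in replicate 2, so the wild-type libraries differed from each other there.

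Follicular B cells recirculate between follicles of the lymphoid organs, while marginal zone B cells stay at the border of white and red pulp and respond early to blood-borne antigen. In mice the marginal zone fate depends on the receptor Notch2, which is cleaved after binding the ligand Dll1 on stromal cells. Its intracellular part then joins the DNA-binding protein RBPJ at target genes. Marginal zone B cells carry more CD21 and CD1d than follicular B cells, which carry more CD23, the product of Fcer2a.

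The promoters of the genes that the results turn on are shown because RBPJ is known to bind the letters TGGGAA, most often as GTGGGAA. RefSeq promoter windows on GRCm38.p6, which has the coordinates of mm10, hold 250 bases before and 50 bases from each annotated start. They were matched for 6 of the 8 genes, all but Cd1d1 and Ms4a1. Capitals mark TGGGAA.
Cr2, chr1:195176670-195176969, minus strand: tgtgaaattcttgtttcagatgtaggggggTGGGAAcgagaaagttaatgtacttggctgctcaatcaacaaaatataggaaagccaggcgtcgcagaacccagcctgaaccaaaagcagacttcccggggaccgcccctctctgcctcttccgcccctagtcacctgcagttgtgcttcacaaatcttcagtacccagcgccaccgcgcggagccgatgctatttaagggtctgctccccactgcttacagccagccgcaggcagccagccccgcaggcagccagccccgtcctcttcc
Cd9, chr6:125494711-125495010, minus strand: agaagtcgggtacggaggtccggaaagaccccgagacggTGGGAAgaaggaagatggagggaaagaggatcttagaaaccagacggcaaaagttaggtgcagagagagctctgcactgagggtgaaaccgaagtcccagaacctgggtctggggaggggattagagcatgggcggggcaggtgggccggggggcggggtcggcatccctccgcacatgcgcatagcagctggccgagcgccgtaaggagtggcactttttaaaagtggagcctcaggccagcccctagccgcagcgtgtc
S1pr3, chr13:51408368-51408667, plus strand: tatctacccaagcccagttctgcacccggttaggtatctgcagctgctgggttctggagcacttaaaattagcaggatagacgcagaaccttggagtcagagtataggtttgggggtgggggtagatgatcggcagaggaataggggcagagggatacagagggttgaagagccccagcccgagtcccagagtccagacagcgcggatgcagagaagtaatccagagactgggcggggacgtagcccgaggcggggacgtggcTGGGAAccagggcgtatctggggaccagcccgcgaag
Dtx1, chr5:120711620-120711919, minus strand: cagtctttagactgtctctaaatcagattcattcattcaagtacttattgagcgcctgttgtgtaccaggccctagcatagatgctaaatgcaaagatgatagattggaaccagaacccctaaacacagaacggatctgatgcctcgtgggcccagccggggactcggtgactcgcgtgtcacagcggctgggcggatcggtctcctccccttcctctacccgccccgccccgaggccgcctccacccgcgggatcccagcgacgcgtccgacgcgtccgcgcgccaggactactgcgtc
Fcer2a, chr8:3694125-3694424, minus strand: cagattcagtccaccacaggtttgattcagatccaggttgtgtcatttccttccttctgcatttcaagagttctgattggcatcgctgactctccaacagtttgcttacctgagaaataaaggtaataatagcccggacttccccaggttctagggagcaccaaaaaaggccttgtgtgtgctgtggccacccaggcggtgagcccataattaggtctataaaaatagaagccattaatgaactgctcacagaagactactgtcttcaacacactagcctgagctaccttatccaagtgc
Searched on both strands, TGGGAA lay in the windows of Cr2, Cd9 and S1pr3 and in those of the 2 downstream starts of Fcer2a, so that 5 of 8 windows held it, against 25.6% of all 32851 windows. GTGGGAA, which contains TGGGAA, lay in the windows of Cr2 and Cd9, against 6.38% of all windows. In Cr2 the marked letters lie 220 to 215 bases before the start and in Cd9 211 to 206 bases before it. In S1pr3 they are bases 14 to 19 from the start. The windows of Dtx1, Notch2 and the first Fcer2a start held neither motif. A match of letters shows no binding, and binding was not measured.

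All 9 rows were lower in both vcS5 libraries than in both wild-type libraries, and 8 of them passed the test for a fall. The test was limma on log2(FPKM + 1) over the whole table, with a Benjamini-Hochberg adjusted p under 0.05 as the threshold. Of all rows, 4.13% passed as lower and 4.59% as higher, and 27.5% had both vcS5 libraries below both wild-type libraries. The median log2 change of the 9 rows was -1.15, beside 0.0012 for all rows. By the q-values of the authors' deposited table, 7 of the 9 rows were lower in vcS5, against 6.14% of all rows. In the whole spleen, fewer cells of a type and less RNA per cell cannot be told apart. The 2 samples of a group are labelled as biological replicates, and a permutation of 2 against 2 libraries cannot give a two-sided p below 0.333.

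**Figure D1:**
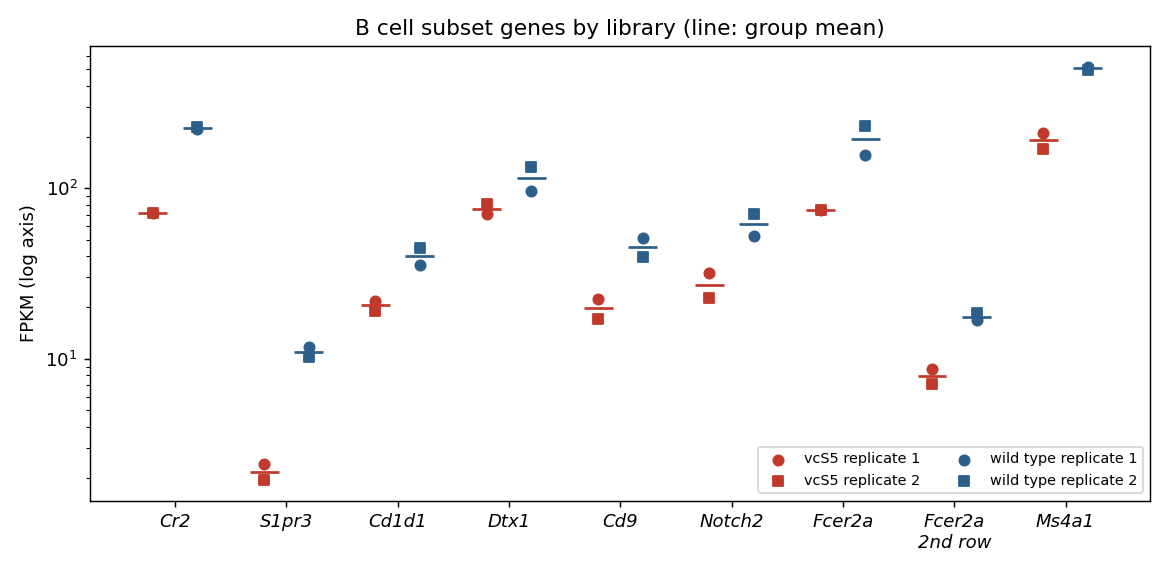
FPKM of each gene (log axis) in the 2 vcS5 libraries (red) and the 2 wild-type libraries (blue), with lines at group means. In each of the 9 rows both red points lie below both blue points, with S1pr3 lowest at 2.41 and 1.94 FPKM in vcS5.

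Cr2 encodes CD21, a complement receptor of B cells, and, by splicing in mice, CD35. The gene (mm10 chromosome 1, 195136811 to 195176716, minus strand) had 71.8 and 71.9 FPKM in vcS5, against 223.0 and 228.5 FPKM in wild type. The libraries within a group were nearly equal, and the groups did not overlap. Cr2 fell to 0.318 of its wild-type mean, a fall of 1.64 on the log2 scale (SE 0.134; limma, adjusted p = 0.00615). Its row carries 2 Ensembl identifiers, the second without a symbol in the reference, so a share of its value may belong to another annotation.

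S1pr3 encodes a sphingosine-1-phosphate receptor, one of those that place marginal zone B cells outside the follicle. The gene (chromosome 13, 51408639 to 51422797, plus strand) had 2.41 and 1.94 FPKM in vcS5, against 11.7 and 10.3 FPKM in wild type. Wild-type values were 5.06 times as high on average, the widest ratio among the 9 rows. It fell by 1.92 (SE 0.172; limma, adjusted p = 0.0078) on the scale of log2(FPKM + 1), which understates the change of a gene at this level. With a pseudocount of 0.1 the log2 change was -2.29.

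Notch2 encodes the receptor itself. The gene (chromosome 3, 98013527 to 98150361, plus strand) had 31.8 and 22.7 FPKM in vcS5, against 52.2 and 70.8 FPKM in wild type. Its groups did not overlap, but the libraries of each group differed. The fall of 1.15 on the log2 scale (SE 0.235; limma, adjusted p = 0.0489) lay close to the threshold. When the variance trend was left out, limma gave an adjusted p of 0.0592, and over its alternatives it ran from 0.0476 to 0.207 by limma. Its locus also holds 2 rows without a symbol.

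Dtx1 encodes deltex 1, a ubiquitin ligase whose gene is induced by Notch signalling. The gene (chromosome 5, 120680202 to 120711927, minus strand) had 70.6 and 80.4 FPKM in vcS5, against 96.4 and 134.0 FPKM in wild type. It is the member that did not pass, with a log2 change of -0.59 (95% interval -1.11 to -0.07, adjusted p = 0.158 by limma). In the authors' deposited table its q was 0.0962.

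Cd1d1 encodes CD1d, which presents lipids to natural killer T cells. The gene (chromosome 3, 86995834 to 86999441, minus strand) had 21.9 and 19.1 FPKM in vcS5, against 35.5 and 44.8 FPKM in wild type. It fell by 0.93 on the log2 scale (SE 0.172, adjusted p = 0.0376 by limma). Its neighbour Cd1d2 is a close copy that had no row under its symbol. The counting of reads that match both copies is not stated, so the value of Cd1d1 is uncertain.

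Cd9 encodes a tetraspanin of marginal zone and B1 B cells that is also abundant on platelets. The gene (chromosome 6, 125460266 to 125494791, minus strand) had 22.5 and 17.1 FPKM in vcS5, against 50.8 and 39.3 FPKM in wild type. It fell by 1.15 on the log2 scale (SE 0.207, adjusted p = 0.0354 by limma). Wild type replicate 1, the library with the most granulocyte marker RNA, was the higher of its group for Cd9.

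Fcer2a encodes CD23, the low-affinity IgE receptor of follicular B cells. The first of its rows (chromosome 8, 3681737 to 3694175, minus strand) had 74.6 and 75.0 FPKM in vcS5, against 156.5 and 231.3 FPKM in wild type. The second, at the same locus, had 8.67 and 7.11 FPKM in vcS5, against 16.8 and 18.5 FPKM in wild type. Neither row's groups overlapped, and both fell, by 1.34 (SE 0.219; limma, adjusted p = 0.029) and by 1.07 (SE 0.16; limma, adjusted p = 0.0234) on the log2 scale. The table does not say how the locus was split. The second row had a q of 0.145 in the authors' deposited table.

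Ms4a1 encodes CD20, a membrane protein of B cells. The gene (chromosome 19, 11249675 to 11266241, minus strand) had 211.7 and 170.5 FPKM in vcS5, against 517.3 and 496.3 FPKM in wild type. It fell by 1.41 on the log2 scale (SE 0.179, adjusted p = 0.0162 by limma). The order of levels per transcript length changed among the genes below it. In vcS5 Dtx1 averaged 75.5, Fcer2a (first row) 74.8 and Cr2 71.8 FPKM, and the Dtx1 libraries spanned those of Fcer2a and Cr2. In wild type Cr2 averaged 225.7, Fcer2a 193.9 and Dtx1 115.2 FPKM, with the Fcer2a libraries spanning those of Cr2 and Dtx1 below both. Notch2, Cd9 and Cd1d1 followed at means of 27.2, 19.8 and 20.5 FPKM in vcS5 and 61.5, 45.0 and 40.2 FPKM in wild type, and the libraries of Cd9 and Cd1d1 overlapped in both groups.

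With 1 library left out, the calls were lost in nearly all cases. Cr2 and S1pr3 kept theirs without wild type replicate 2 (adjusted p = 0.0482 and 0.0493 by limma), and no row passed with vcS5 replicate 1, vcS5 replicate 2 or wild type replicate 1 left out. Over the 4 such fits the log2 change of Cr2 ran from -1.66 to -1.62, of S1pr3 from -2.02 to -1.81, of Ms4a1 from -1.57 to -1.26 and of Fcer2a (first row) from -1.62 to -1.06. Adjusted p-values over all alternatives ran from 0.00513 to 0.0948 for Cr2 and from 0.0078 to 0.0902 for S1pr3 by limma.

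Set against Ms4a1 in the same library, the marginal zone genes lay on both sides of it. S1pr3 stood at 1.14% of Ms4a1 FPKM in both vcS5 libraries, against 2.27% and 2.07% in wild type. Cr2 stood at 33.9% and 42.2% in vcS5, against 43.1% and 46.0% in wild type. For both genes the vcS5 shares lay below the wild-type shares, which held for 1.01% of all rows. Ms4a1 itself fell and most rows are no B cell genes, so this percentage does not describe B cell genes. For Cr2 the gap was narrow, between 42.2% in vcS5 replicate 2 and 43.1% in wild type replicate 1.

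Other members took a larger share of Ms4a1 in vcS5. Dtx1 stood at 33.4% and 47.2% of Ms4a1 in vcS5, against 18.6% and 27.0% in wild type. Cd1d1 stood at 10.4% and 11.2% in vcS5, against 6.87% and 9.03% in wild type. Cd9 stood at 10.7% and 10.0% in vcS5, against 9.82% and 7.91% in wild type. In these 3 genes and in the second Fcer2a row the vcS5 shares lay above the wild-type shares, as in 89.3% of all rows, most of which are no B cell genes. The shares of Notch2, 15.0% and 13.3% in vcS5 against 10.1% and 14.3% in wild type, overlapped. So did those of Fcer2a, 35.2% and 44.0% in vcS5 against 30.3% and 46.6% in wild type.

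**Figure D2:**
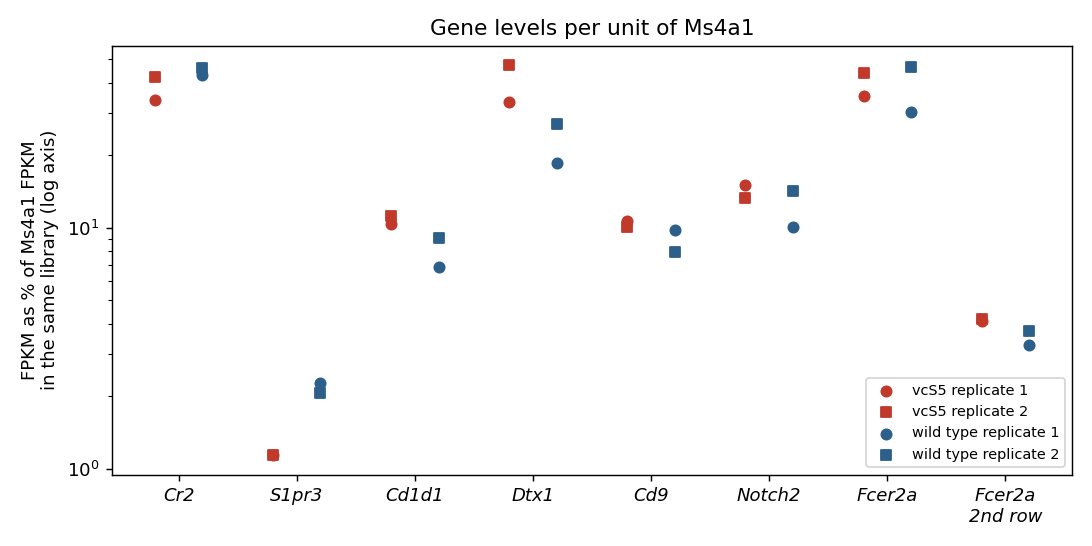
FPKM of each gene as a percentage of Ms4a1 FPKM in the same library (log axis), for 2 vcS5 libraries (red) and 2 wild-type libraries (blue). S1pr3 is at 1.14% in both vcS5 libraries and above 2% in wild type, while Dtx1 is higher in vcS5 and Fcer2a overlaps.

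The difference from Ms4a1 was tested with limma on the log2 values minus that of Ms4a1 in the same library. Of the 8 rows, 1 passed, Dtx1, whose change lay 0.82 above that of Ms4a1 (95% interval 0.14 to 1.51, adjusted p = 0.0264). Of all rows 90.1% passed as higher and 0.26% as lower in this fit, so a pass as higher is the usual case for a row. Each row of this fit carries the same error of Ms4a1, which makes the pooled spread less certain than the fit assumes. With the spread of Dtx1 alone its adjusted p was 0.171, and over its alternatives it ran from 5.95e-05 to 0.357 by limma. Dtx1 lost the call without vcS5 replicate 2, wild type replicate 1 or wild type replicate 2, at differences of 0.58, 0.56 and 1.09.

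The other members did not pass against Ms4a1, and their intervals leave room for differences either way. The difference was -0.51 for S1pr3 (95% interval -1.06 to 0.04, adjusted p = 0.0739 by limma) and -0.23 for Cr2 (-0.87 to 0.41). It was 0.48 for Cd1d1 (-0.10 to 1.06), 0.26 for Cd9 (-0.30 to 0.83) and 0.26 for Notch2 (-0.35 to 0.87). The first Fcer2a row differed by 0.07 (-0.62 to 0.77). S1pr3 passed as lower with a pseudocount of 0.1 (difference -0.88, adjusted p = 0.0131 by limma) and against the mean of the pan B cell list (-0.61, adjusted p = 0.0473 by limma). With the spread of S1pr3 alone, the test of its difference from Ms4a1 gave an unadjusted p of 0.0222 and an adjusted p of 0.0534. Over its alternatives the adjusted p of S1pr3 ran from 0.0131 to 0.339.

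**Figure D3:**
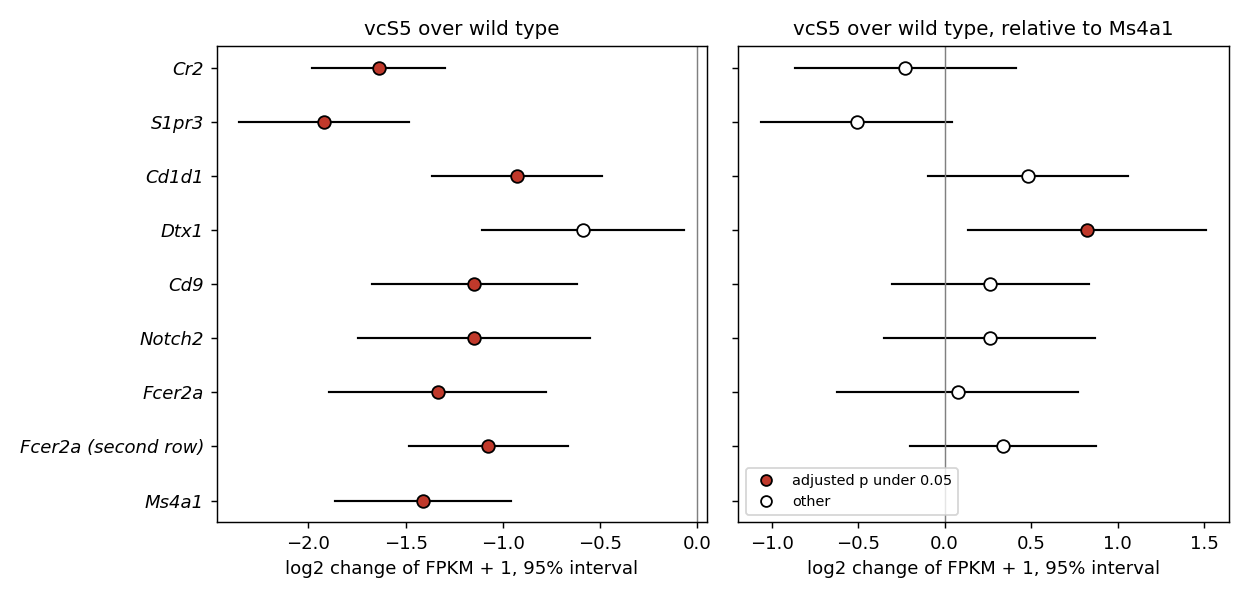
Log2 change of FPKM + 1 in vcS5 over wild type (left) and the same relative to Ms4a1 (right), with 95% intervals from limma, and filled points for an adjusted p under 0.05. On the left all rows except Dtx1 are filled, and on the right only Dtx1, at 0.82, is filled.

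Against Fcer2a (first row), the test of the marginal zone genes against the follicular gene, Dtx1 alone passed, 0.75 above Fcer2a (95% interval 0.06 to 1.44, adjusted p = 0.0395 by limma). In this fit 84% of all rows passed as higher and 0.295% as lower. Each row carries the same error of Fcer2a, so the pooled spread is less certain than the fit assumes. With the spread of each row alone, 2 of 14225 rows passed. The difference was -0.58 for S1pr3 (-1.42 to 0.25), -0.30 for Cr2 (-0.99 to 0.39), 0.41 for Cd1d1 (-0.31 to 1.12), 0.19 for Cd9 (-0.52 to 0.90) and 0.19 for Notch2 (-0.51 to 0.89). The call of Dtx1 was lost when the variance trend was left out (limma, adjusted p = 0.0675), with its own spread (0.0911), and without vcS5 replicate 1 (0.236) or replicate 2 (0.348). Over its alternatives the adjusted p ran from 0.0141 to 0.348. Without wild type replicate 2, where Fcer2a was high, S1pr3 (-0.95) and Cr2 (-0.57) passed as lower than Fcer2a, as S1pr3 did with a pseudocount of 0.1 (-0.94), and without wild type replicate 1 Cd9 passed as higher (0.65).

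Ms4a1 itself was checked against 18 other pan B cell genes. Of these, 17 passed as lower and 0 as higher, against 4.13% and 4.59% of all rows. Their median was -1.37 on the log2 scale, with a range from -1.56 to -0.88. Pax5, which keeps B cells in their lineage, changed by -1.56. Cd79a, a signalling chain of the B cell receptor, changed by -1.46. Blnk, an adaptor of that receptor, and Blk, a kinase of B cells, both changed by -1.41. None of the 18 passed the test of a difference from Ms4a1 by limma, with 0 at an unadjusted p under 0.05 as well. Ms4a1 departed from the list within wild type, where 17 of the 18 genes were higher in replicate 2 than in replicate 1. The median ratio of replicate 2 to 1 was 1.22 there, while Ms4a1 had a ratio of 0.96. Within vcS5 the ratio of replicate 2 to 1 was 0.81 for Ms4a1, beside a list median of 0.97.

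Of 16 other marginal zone genes, 10 passed as lower and 0 as higher, against 4.13% and 4.59% of all rows. The median of the 16 was -0.95. Of the 16, 5 passed as higher than Ms4a1, against 90.1% of all rows. Myof, encoding myoferlin, had 2.88 and 3.36 FPKM in vcS5, against 11.4 and 12.7 FPKM in wild type (log2 change -1.66, adjusted p = 0.00928 by limma). Fcrl5, an Fc receptor-like gene of marginal zone and B1 cells in mice, changed by -1.58, Sema7a, a semaphorin, by -1.35 and Cd38, an ectoenzyme, by -1.21. S1pr1, a sphingosine-1-phosphate receptor that T cells also express, was at 0.08, and Gpr183, an oxysterol receptor that guides B and T cells, at -0.02. The other 4 that did not pass were Tm6sf1 at -0.12, Rgs10 at -0.27, Plxnd1 at -0.73 and Dusp16 at -0.82. These 6 are named after their values were seen. Pan T cell markers were higher in the vcS5 libraries, and whether T cell RNA has a part in any of these values was not tested.

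Of 9 other follicular genes, 4 passed as lower and 0 as higher, against 4.13% and 4.59% of all rows. The median of the 9 was -0.14. Icosl, the ligand of ICOS, Cxcr5, the receptor for the follicle chemokine CXCL13, Tcf4, a transcription factor, and Cd55, a regulator of complement, changed by -1.27, -1.22, -1.20 and -0.90. Klf2, Ccr7, Itgb7 and Foxo1, which naive T cells also express, did not pass and lay between -0.14 and 0.47. They are named after their values were seen. These 4 passed as higher than Ms4a1, as did 90.1% of all rows. The part of T cell RNA in these values was not tested.

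Among 20 genes of the Notch pathway, 1 fell and 2 rose, with a median of 0.02. Over all rows 4.13% passed as lower and 4.59% as higher, so the count for the pathway is near that of rows in general. Hes1, a repressor and direct Notch target, had 6.50 and 9.52 FPKM in vcS5, against 21.5 and 24.0 FPKM in wild type (log2 change -1.42, adjusted p = 0.0218 by limma), a difference from Ms4a1 of -0.01. Lfng, a glycosyltransferase that modifies Notch receptors, had 94.7 and 90.4 FPKM in vcS5, against 40.7 and 42.2 FPKM in wild type (log2 change 1.14). Nrarp, a feedback inhibitor and Notch target, had 8.33 and 6.46 FPKM in vcS5, against 3.09 and 2.53 FPKM in wild type (log2 change 1.13). T cells of the spleen also express Notch genes, and their part in these values was not tested. Of the remaining members, 17 did not pass in either direction by limma. Of the 20, 5 had an unadjusted p under 0.05, and 2 were lower and 2 higher by the q of the authors' deposited table.

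Of 11 genes of complement and of the partners of CD21, 3 passed as lower and 0 as higher, against 4.13% and 4.59% of all rows. The median of the 11 was -0.90. Cd81, a tetraspanin, changed by -1.35, and Cd55, which also belongs to the follicular list, by -0.90. Of 8 genes of CD1d lipid presentation, Ctss, a lysosomal protease, fell by 0.82 and Npc2, a lysosomal lipid carrier, rose by 0.72, with a median of -0.53. Among 9 transitional and B1 B cell genes, Vpreb3, a gene of early and transitional B cells, fell by 1.10, while Ptpn22 and Spn, which T cells also express, rose by 1.26 and 0.72.

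**Figure D4:**
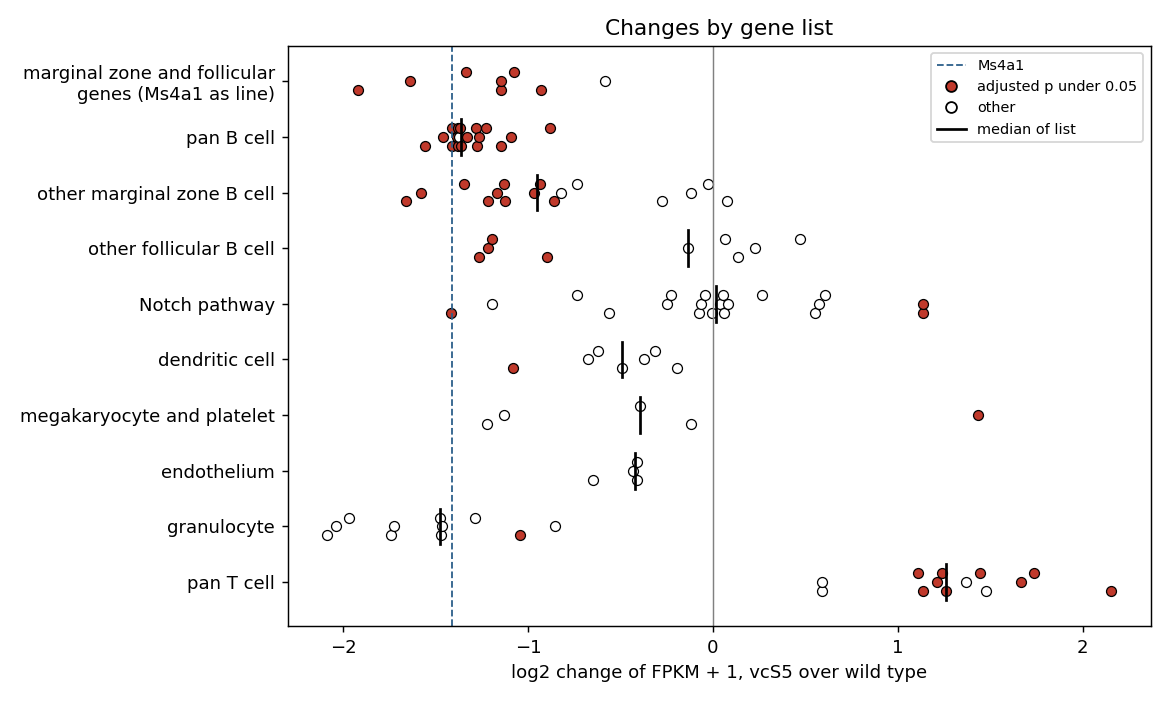
Log2 change of FPKM + 1 in vcS5 over wild type (horizontal axis) in 10 groups of genes. The top group holds the member rows without Ms4a1 and has no bar, and the others are the lists named on the vertical axis. Points are filled for an adjusted p under 0.05, with bars at list medians and a dashed line at Ms4a1 (-1.41). The pan B cell genes cluster at that line, around a median of -1.37, while the Notch pathway genes are spread around 0.02.

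Several members are also expressed outside the B lineage, and markers of those cells are given here. Follicular dendritic cells carry CD21 and CD23 too. Of their 14 marker and stroma genes 4 were among the rows, summing to 21.9 and 31.7 FPKM in vcS5 against 35.3 and 33.5 FPKM in wild type. Cxcl13, Fdcsp and Madcam1 had no row under their symbols. None of the 4 passed by limma, 2 had an unadjusted p under 0.05, and 2 were lower by the q of the authors' deposited table. Vcam1, an adhesion molecule, and Mfge8, a bridge to dying cells, were at log2 differences of -0.28 and -0.13. Coch, encoding cochlin, had 0.662 and 0.464 FPKM in vcS5 against 2.11 and 2.14 FPKM in wild type, a ratio of means of 0.265. Clu, encoding clusterin, had 0.423 and 0.657 FPKM in vcS5 against 1.90 and 1.69 FPKM in wild type, a ratio of means of 0.302. Coch and Clu are named after their values were seen. For endothelium, which expresses S1pr3 as well, 4 of 9 markers summed to 37.2 and 43.8 FPKM in vcS5 against 58.4 and 68.8 FPKM in wild type. None passed by limma, 1 had an unadjusted p under 0.05, and 1 was lower in the authors' deposited table. Pecam1 and Vwf, an adhesion molecule and a clotting factor, were at -0.65 and -0.41, and Cdh5 and Kdr had no row under their symbols.

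For platelets and megakaryocytes, which carry CD9, 5 of 10 markers summed to 34.1 and 37.0 FPKM in vcS5 against 24.0 and 24.2 FPKM in wild type. Of these sums Itgb3, an integrin chain, had 27.6 and 30.2 FPKM in vcS5 against 9.53 and 10.6 FPKM in wild type, and it rose by 1.43. The other 4 did not pass and were lower by mean in vcS5, with log2 differences between -1.23 and -0.12. Gp9 and Pf4 had no row under their symbols. Of the 5, 3 had an unadjusted p under 0.05, Itgb3 as higher and Gp1bb (-1.23) and Ppbp (-1.13), named after their values were seen, as lower, and 2 were lower and 1 higher by the q of the authors' deposited table. Dendritic cells, a subset of which needs Notch2, had 7 of 8 markers, summing to 37.6 and 45.6 FPKM in vcS5 against 80.2 and 66.4 FPKM in wild type. Sirpa, a receptor of myeloid cells, fell by 1.08 and the other 6 did not pass by limma. Log2 differences of the list ran from -1.08 to -0.19. Of the 7, 3 had an unadjusted p under 0.05, and 2 were lower by the q of the authors' deposited table. For marginal zone and metallophilic macrophages, 4 of 8 markers summed to 119 and 144 FPKM in vcS5 against 127 and 122 FPKM in wild type. Marco, Cd209b and Siglec1 had no row under their symbols. None passed by limma, 1 had an unadjusted p under 0.05, and 0 passed by the q of the authors' deposited table. Nr1h3, a sterol-sensing nuclear receptor, and C1qa, a complement component, were at 0.40 and -0.48. Of the sums Nr1h3 made up 81.6 and 78.1 FPKM in vcS5 against 57.9 and 62.7 FPKM in wild type. C1qa, Spic and Vcam1, which is also in the stroma list, were lower by mean in vcS5. Of the T cell markers, Thy1, Cd3d and Cd3e rose by 2.16, 1.66 and 1.44. Of 11 granulocyte markers 1 passed as lower by limma, Csf3r at -1.04, while the median of the list was -1.48, 8 had an unadjusted p under 0.05, and 10 were lower by the q of the authors' deposited table. The part of these cells in the results was not tested.

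The rows with the most similar profile were found by the distance between log2 profiles over the 4 libraries, each centred on its mean, among 8461 rows. Nearest to Cr2 was Myof at a distance of 0.143, followed by Plaur, the urokinase receptor, and Rasgef1b, a guanine nucleotide exchange factor gene. Nearest to Fcer2a was Faim3, the gene of the IgM Fc receptor, at 0.0738, followed by Trat1, a T cell receptor adaptor, and Tnfrsf13c, the BAFF receptor. Nearest to Ms4a1 was Klf4, a transcription factor, at 0.0613, followed by March1, a ubiquitin ligase of antigen-presenting cells, and Cd81. With 4 libraries, these distances are descriptions.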

How the data were processed

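RNA was extracted with Trizol from frozen spleen cell suspensions and made into TruSeq RNA v2 libraries, a kit that does not mark strand, per the labels' protocols. The authors deposited FPKM values for 4 libraries with a p-value and q-value for the comparison, per the file headers. The submitters' processing notes name mm10, TopHat2 2.0.9 with Bowtie2 2.1.0, and Cuffdiff 2.1.1 with Cufflinks, but no settings. FPKM hides read numbers, so depth is unknown and no counting interval is given.

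Values were taken as log2(FPKM + 1) and compared by limma (version 3.58.1, under R 4.3.3, variance trend on), using all 14226 rows and 4 libraries, two-sided, with Benjamini-Hochberg adjustment at 0.05. Differences from Ms4a1 or Fcer2a used the same model on log2 values minus that gene's. Its prior had 3.17 degrees of freedom for the plain change and 9.21 against Ms4a1, and was infinite against Fcer2a, beside 2 residual ones. SEs and 95% intervals are limma's. Ratios are of mean FPKM. Scripts were tested on simulated data. Where a symbol had several rows, lists used the row of highest FPKM. Coordinates are from GENCODE vM21.

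The members and the 14 lists, with 176 entries, were chosen with earlier results of these data known. The naming rule took all members, Stat5a, up to 4 members per list past the test with the largest change (otherwise the 2 of highest FPKM), and the 3 nearest profiles of Cr2, Fcer2a and Ms4a1 at a mean FPKM of at least 5. Some genes that this rule takes are not reported here.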

Additional observations from a re-analysis of the deposited data

How the results depend on the processing

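The 8 rows that passed as lower became 7 or 8 with a pseudocount of 0.1, a mean FPKM of at least 5, no variance trend or quantile normalization, and 7 by the q of the authors' deposited table. Leaving out 1 library gave 0 to 2 rows passing by limma, with 8 or 9 at an unadjusted p under 0.05, and a group of 1 library is then assumed to vary like the other. Relative to Ms4a1, 1 row passed. With a pseudocount of 0.1 it was 2, with the mean of the pan B cell list as reference 2, with the spread of each row alone, an alternative chosen after seeing the data, 0 by that test and 1 at an unadjusted p under 0.05, and with 1 library left out 0 to 1. The row at an unadjusted p under 0.05 with its own spread was S1pr3, as lower, and not Dtx1 (unadjusted p = 0.151 by that test). Relative to Fcer2a, 1 row passed. With a pseudocount of 0.1 it was 2, without the variance trend 0 (0 at an unadjusted p under 0.05), with the spread of each row alone 0 (1), and with 1 library left out 0 to 3. Summing the Fcer2a rows, also chosen after seeing the data, left 7 of 8 rows passing as lower and 1 relative to Fcer2a. For these counts the cause was not tested.

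Same-numbered libraries had deviations that correlated at 0.176 over rows, and the labels give no pairing beyond the number. With the replicate block, 6 rows passed as lower, 2 relative to Ms4a1 (Dtx1, and Cd1d1 at 0.48 with an adjusted p of 0.0198 by limma) and 0 relative to Fcer2a (0 at an unadjusted p under 0.05), where the adjusted p of Dtx1 was 0.121 by limma. No direction of a call was reversed. FPKM without read numbers limits what the low values of S1pr3 can show.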
